A study of Sus scrofa with 6 samples.

Results

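Integrins and the laminin network are the receptor and ligand sides by which a Sertoli cell holds on to its basement membrane. The genes described here are the rows of a pig gene table whose Ensembl identifiers map to an integrin alpha chain (ITGA), an integrin beta chain (ITGB) or a laminin alpha, beta or gamma chain (LAMA, LAMB, LAMC), together with the nidogens NID1 and NID2, perlecan (HSPG2) and agrin (AGRN). The rule used the symbols alone, and 36 of 20731 genes are described, 22 of them integrin chains and 10 laminin chains. LAMA2, ITGA2B, ITGA4, ITGAD and ITGAX had no matched row and were not analysed here. The RNA came from immature Sertoli cells of the pig, which the labels also enter as the cell line and as the genotype. The 3 MT libraries were made from cells kept with 10 nM melatonin, the hormone of the pineal gland, for 36 h, and no dose, solvent or time is given for the 3 Control libraries. The labels do not say whether the libraries came from separate cultures or animals, so a p-value here weighs a difference against library-to-library spread alone, part of which may be technical.

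An integrin is a pair of 1 alpha and 1 beta chain that spans the cell membrane, and the pair decides what the receptor binds. A laminin is a cross-shaped trimer of 1 alpha, 1 beta and 1 gamma chain and is named by its chain numbers, so that laminin 511 holds LAMA5, LAMB1 and LAMC1. Laminin trimers join into sheets, nidogens and perlecan tie the sheets to the collagen IV network, and agrin links laminin to receptors at the cell surface. ITGA3, ITGA6 and ITGA7 with ITGB1, and ITGA6 with ITGB4, are the laminin receptors of the family. In the seminiferous tubule, Sertoli cells rest on a basement membrane that they build with the peritubular myoid cells, and on the side of the germ cells the pair of ITGA6 and ITGB1 is known as a receptor for laminin 333 at the junction with spermatids.

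Expression was read as FPKM, a count of sequenced fragments scaled to gene length and library size, from libraries of 19579279 to 21500665 reads. Control 3 stood apart. Across the 10950 genes whose mean reached 1 FPKM, its correlation was 0.938 and 0.939 with Control 1 and Control 2, which had 0.993 with each other, and 0.952 to 0.975 with the MT libraries (genes are not independent replicates). The fold differences below are therefore given over all 6 libraries and again without Control 3. Of the Sertoli cell markers AMH, SOX9, WT1, INHBB and CLU exceeded 1 FPKM, while INHA, KITLG, DHH and DMRT1 were at 0.10 FPKM or less in each library. All 4 endothelial markers with a row were below 1 FPKM. A mean of 1 FPKM was reached by 3 of 7 leukocyte markers with a row. These were CD14 (6.21 to 8.30 FPKM in Control against 7.08 to 7.94 in MT), CD68 and TYROBP (0.93 to 1.81 against 0.98 to 2.40). CD68 did not overlap, at 3.18 to 4.14 in Control against 4.50 to 5.30 in MT. A mean of 1 FPKM was also reached by 2 of 3 Leydig cell markers, STAR (2.12 to 2.68) and CYP11A1 (1.46 to 2.47). The same held for 1 of 4 germ cell markers, UCHL1, and 1 of 2 platelet markers, GP9. The summed leukocyte list stood at 10.9 to 13.8 FPKM in Control against 13.5 to 15.3 in MT. The summed germ list stood at 1.21 to 1.71 against 1.84 to 1.92. The part of these cells in the results was not tested. Among myoid markers ACTA2 was at most 0.21 and MYH11 at most 0.04 FPKM, while TAGLN was at 154 to 257 FPKM and highest in Control 3. DES was at 5.55 to 6.62 FPKM in Control against 5.81 to 9.43 in MT, and PTCH1 at 1.90 to 2.45 against 2.31 to 2.69. The summed myoid list, most of it TAGLN, stood at 163 to 268 FPKM in Control against 165 to 197 in MT, and its part in the results was not tested. In bulk RNA, fewer cells of a type and less RNA per cell cannot be told apart.

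Of the 36 genes, 27 reached a mean of 1 FPKM and were tested: 16 integrin chains, 8 laminin chains, NID2, HSPG2 and AGRN. With all 6 libraries 0 of the 27 differed between MT and Control at an adjusted p of 0.05, as did 0 of the 10950 genes tested (0%, limma on log2(FPKM + 1), Benjamini-Hochberg over all tested genes). At an unadjusted p under 0.05 limma gave 1 member, LAMB3, higher in MT, where 4.72% of all tested genes passed, 2.33% higher and 2.39% lower. Voom, which models read numbers and was run on reads worked out from the FPKM values, gave 0 members past the adjusted threshold and 2 at an unadjusted p under 0.05 (background 4.52%), LAMB3 higher (2.33%) and ITGB6 lower (2.19%). Without Control 3, 8 of the 27 passed over all genes tested, against a background of 10.9%. LAMA5, LAMB3, NID2, AGRN, ITGA3 and ITGB4 were higher in MT (6 members, background 4.28%), and ITGB6 and ITGB8 were lower (2 members, background 6.62%). Quantile normalisation called the same 8 (backgrounds 6.05% and 6.12%), and voom added LAMB1 and HSPG2 to make 8 higher (8.29%) and 2 lower (13.3%). In all 8 the library left out lay on the MT side of Control 1 and Control 2, and in 6 of them beyond all 3 MT libraries, as it lay on the MT side in 93.4% of the 1194 genes that passed in that fit. The 8 differences are therefore between the MT libraries and 2 of the 3 Control libraries.

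LAMA5 and LAMB1 led the laminin alpha and beta chains in every library. LAMA5 held 66.9% to 79.6% of the summed FPKM of the alpha chains and LAMB1 68.2% to 75.8% of the beta chains (the plot of shares by library), and LAMC1, the gamma chain of most laminins, was at 66.1 to 74.0 FPKM. These 3 are the chains of laminin 511, the widespread laminin of adult basement membranes. LAMA1 and LAMA4 followed among the alpha chains with 11.8% to 14.6% and 5.38% to 15.5%. LAMB2, which takes the place of LAMB1 in laminin 521, held 17.6% to 26.4%. LAMA3 and LAMB3, chains of the laminins that anchor epithelia, were a small part, LAMA3 at most 2.99% and LAMB3 at most 9.22% of their class. LAMC3, the gamma chain of laminin 333, had at most 2 reads in any library, and LAMB4 at most 3.

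**Figure D1:**
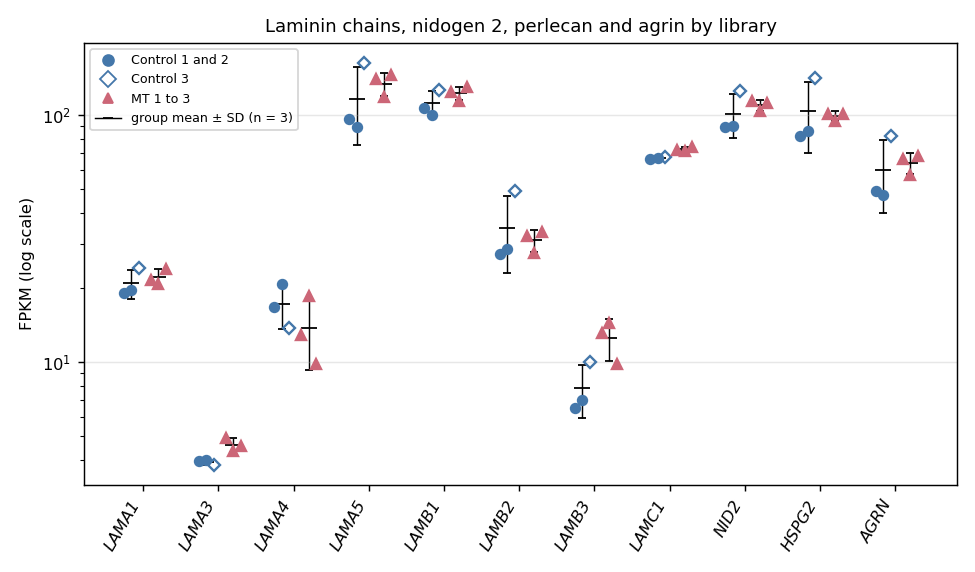
FPKM on a log scale of the tested laminin chains, NID2, HSPG2 and AGRN; points are single libraries, bars the group mean ± SD (n = 3). LAMC1 was at 66.1 to 67.3 in Control against 71.8 to 74.0 in MT, and the open diamonds of Control 3 lie above all MT points for LAMA5, LAMB2, NID2, HSPG2 and AGRN.

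LAMB3, a beta chain of epithelial anchoring laminins, had the largest log2 difference of the 27 tested members. LAMB3 (chromosome 9, 133298009 to 133351162) stood at 6.52, 7.03 and 10.0 FPKM in Control 1 to 3 against 13.1, 14.4 and 9.79 in MT 1 to 3. MT 1 and MT 2 were above every Control library, and MT 3 lay just below Control 3. The log2 difference was 0.61 (SE 0.20, limma adjusted p 0.886), and 0.78 (SE 0.15, adjusted p 0.0329) without Control 3. Its alpha partner differed less. LAMA3 was at 3.99, 4.0 and 3.84 FPKM in Control against 4.95, 4.37 and 4.58 in MT, with all MT libraries above all Control libraries and a log2 difference of 0.19 (limma, SE 0.10, adjusted p 1), and 0.17 without Control 3.

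LAMA5 (ENSSSCG00000032761, chromosome 17, 61698370 to 61747795), the most abundant alpha chain, stood at 95.6, 89.5 and 162 FPKM in Control against 139, 118 and 144 in MT. The groups overlapped through Control 3 alone, which held the highest value of the 6. The log2 difference was 0.25 (95% confidence interval -0.31 to 0.81) over 6 libraries and 0.52 (0.29 to 0.75, limma adjusted p 0.0329) without Control 3. LAMA4, an alpha chain of vessels and other mesenchymal basement membranes, went the other way in its mean but varied within both groups, at 16.7, 20.7 and 13.7 in Control against 12.8, 18.5 and 9.78 in MT. LAMA1, the alpha chain of the early embryonic laminin, was at 19.0, 19.5 and 24.0 in Control against 21.5, 20.6 and 23.8 in MT, and it passed in neither fit.

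The gamma chain LAMC1 varied little within each group. LAMC1 (chromosome 9, 124283668 to 124405967) stood at 66.1, 67.0 and 67.3 FPKM in Control against 71.8, 71.4 and 74.0 in MT. The MT libraries lay above the Control libraries, Control 3 included, by 0.12 on the log2 scale (95% interval -0.10 to 0.33, limma adjusted p 1), and by 0.12 without Control 3. LAMB1 (chromosome 9, 107670120 to 107747242) was at 106, 99.4 and 126 FPKM in Control against 123, 114 and 129 in MT, and the log2 difference of 0.25 without Control 3 had an adjusted p of 0.0674 with limma, while voom called it. LAMB2 was at 27.3, 28.5 and 48.9 in Control against 32.2, 27.5 and 33.5 in MT. Its difference was -0.12 over 6 libraries and 0.15 without Control 3, and it passed in neither fit. The laminin chains had a median log2 difference of 0.13 over 6 libraries with 6 of 8 above 0, and 0.18 without Control 3 with 7 of 8 above 0, where the median over all tested genes was 0.02 and -0.0037. The 16 integrin chains did not share this. Their median was 0.08 over 6 libraries with 10 above 0, and -0.05 without Control 3 with 7 above 0 and 9 below. Over all 27 tested members 18 of the differences were above 0 (background 56.0%), and 17 without Control 3 (49.4%).

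The 3 tested binding partners of laminin were NID2, AGRN and HSPG2. NID2 (chromosome 1, 181699098 to 181773084), a nidogen that bridges laminin and collagen IV, stood at 89.4, 89.8 and 125 FPKM in Control against 113, 103 and 111 in MT. AGRN (chromosome 6, 63366017 to 63398311), the heparan sulphate proteoglycan agrin, stood at 49.3, 47.3 and 82.3 in Control against 66.4, 56.9 and 68.2 in MT. HSPG2 (chromosome 6, 79849691 to 79958283), perlecan, stood at 82.3, 85.5 and 141 in Control against 101, 93.8 and 101 in MT. In all 3 genes Control 1 and Control 2 were the lowest libraries and Control 3 the highest, with the MT libraries between. This order was not particular to them. It also held for LAMA1, LAMA5, ITGA3, ITGB4 and ITGB5, and Control 3 was the highest library in 32.4% of all tested genes. Over 6 libraries the log2 differences were 0.12, 0.14 and -0.01, that of HSPG2 turning to 0.0034 with quantile normalisation. Without Control 3 they were 0.28 for NID2 (limma adjusted p 0.0459), 0.39 for AGRN (0.0441) and 0.23 for HSPG2 (0.0621), so that NID2 and AGRN passed and HSPG2 passed with voom alone. NID1, the other nidogen, had 2 reads over the 6 libraries, with 0 reads in 4 of them, a count that allows up to 3 reads in each.

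**Figure D2:**
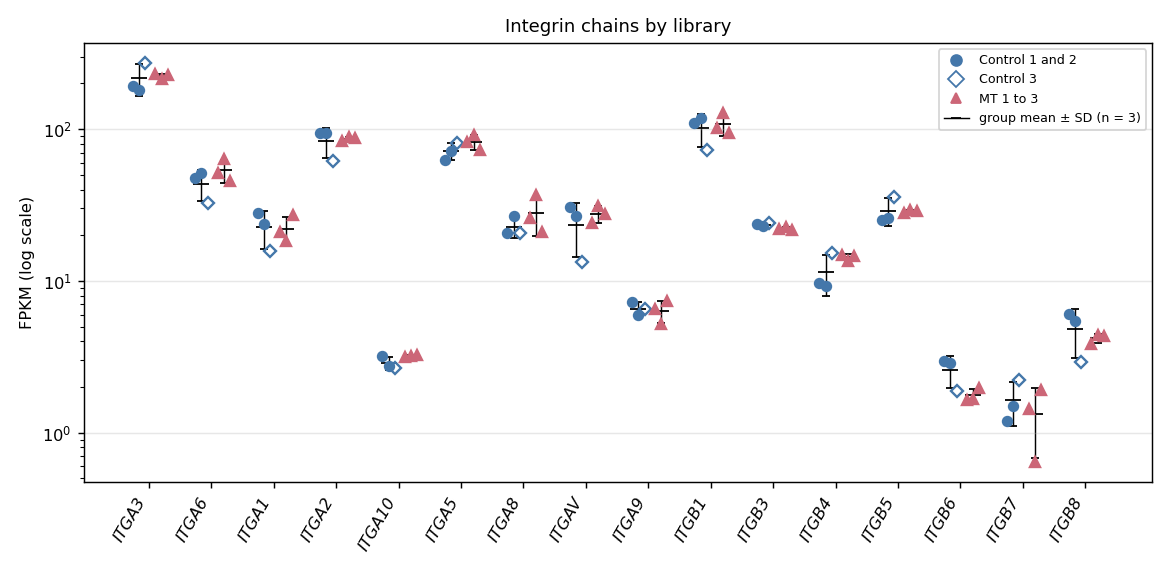
FPKM on a log scale of the tested integrin chains; points are single libraries, bars the group mean ± SD (n = 3). ITGA3 is the highest chain at 181 to 274 FPKM, and ITGAV, ITGB1, ITGA2 and ITGA6 have their lowest point in Control 3.

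Among the receptors, ITGA3 was the most abundant chain and ITGB1 the most abundant beta chain. ITGA3 (ENSSSCG00000017578, chromosome 12, 26234769 to 26269327), which pairs with ITGB1 and binds laminin 511, stood at 191, 181 and 274 FPKM in Control against 231, 215 and 227 in MT. The MT libraries lay above Control 1 and Control 2 and below Control 3. Its log2 difference was 0.08 (SE 0.17) over 6 libraries and 0.27 (SE 0.07, limma adjusted p 0.0487) without Control 3. ITGA6 (chromosome 15, 78504108 to 78591779), the alpha chain shared by both laminin receptor types, was at 47.3, 51.2 and 32.5 FPKM in Control against 51.6, 63.2 and 45.4 in MT. Control 3 was the lowest, and the remaining Control libraries lay within the MT range (log2 difference 0.30, SE 0.20, and 0.10 without Control 3). ITGA7, the laminin receptor chain of muscle, had reads in MT 1 alone, worked out as 1, which may be a fraction of the true number.

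ITGB4 had the smallest p of the members without Control 3. ITGB4 (ENSSSCG00000017204, chromosome 12, 5651292 to 5685601) pairs with ITGA6 alone, has a long cytoplasmic tail and anchors epithelial cells through hemidesmosomes. It stood at 9.65, 9.26 and 15.3 FPKM in Control against 14.8, 13.6 and 14.7 in MT. The MT libraries were tightly grouped above Control 1 and Control 2, and Control 3 was slightly higher still. The log2 difference was 0.34 (95% interval -0.12 to 0.79) over 6 libraries, and 0.55 (0.38 to 0.73, limma adjusted p 0.0200) without Control 3. The epithelial markers with a row were CDH1 and EPCAM, and they showed no such order. CDH1 stood at 9.46 to 11.0 FPKM in Control against 7.36 to 10.7 in MT, and EPCAM at 2.64 to 3.76 and 3.09 to 4.05.

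ITGB1 (chromosome 10, 56078393 to 56130608), the common beta chain of the laminin, collagen and fibronectin receptors, was at 110.0, 119 and 73.4 FPKM in Control against 101, 128 and 93.9 in MT. The lowest library was Control 3 and the highest MT 2, and the difference was 0.11 over 6 libraries and -0.10 without Control 3 (95% interval -0.41 to 0.21). The collagen receptor chain ITGA2 had 94.6, 94.1 and 61.9 FPKM in Control against 83.7, 88.4 and 86.8 in MT, and ITGA1 had 28.0, 23.8 and 15.8 in Control against 20.9, 18.4 and 27.1 in MT. Both were lowest in Control 3 and passed in neither fit. ITGA10 was at 2.65 to 3.24 FPKM over the 6 libraries, and ITGA11 had at most 3 reads in any library.

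The chains that bind the RGD motif of fibronectin and vitronectin showed no difference that passed on the alpha side. ITGA5 (chromosome 5, 19587361 to 19610580), the fibronectin receptor chain, stood at 62.4, 72.0 and 80.8 FPKM in Control against 82.6, 91.2 and 73.0 in MT. MT 1 and MT 2 exceeded every Control library, and MT 3 did not (log2 difference 0.20, SE 0.14, and 0.29 without Control 3, limma adjusted p 0.112). ITGAV, the alpha chain shared by ITGB3, ITGB5, ITGB6 and ITGB8, was at 30.5, 26.8 and 13.3 in Control against 24.2, 31.3 and 27.5 in MT. Control 3 was far below the other 5, at a log2 deviation of -1.04 from the mean of Control 1 and Control 2. ITGA8, the nephronectin receptor chain, ranged from 20.6 to 26.6 FPKM in Control against 21.1 to 36.7 in MT, and ITGA9, a receptor chain for tenascin, from 5.98 to 7.23 and from 5.22 to 7.36.

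The beta chains that join ITGAV differed among themselves. ITGB6 (ENSSSCG00000015886, chromosome 15, 67041516 to 67175409), which with ITGAV activates latent TGF-beta, was at 2.99, 2.90 and 1.87 FPKM in Control against 1.65, 1.68 and 1.98 in MT. Control 3 lay inside the MT range, and the log2 difference was -0.36 (SE 0.16, unadjusted p 0.057) over 6 libraries and -0.51 (SE 0.10, limma adjusted p 0.0329) without Control 3. ITGB8 (chromosome 9, 89342245 to 89450701), which also presents latent TGF-beta, was at 6.10, 5.42 and 2.91 in Control against 3.87, 4.41 and 4.33 in MT, with Control 3 the lowest (-0.12, and -0.38 without Control 3, adjusted p 0.0466). These 2 chains rest on few reads, 212 to 360 for ITGB6 and 540 to 1057 for ITGB8 in a library.

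ITGB3, the beta chain of the vitronectin receptor, was at 23.6, 23.0 and 24.0 FPKM in Control against 22.0, 22.7 and 21.7 in MT. All MT values lay below all Control values, with a log2 difference of -0.08 (95% interval -0.30 to 0.14), and -0.07 without Control 3. ITGB5 was at 25.3, 25.8 and 35.9 in Control against 27.9, 29.3 and 28.8 in MT, a difference of 0.0006 over 6 libraries, which turned to -0.02 with median ratio scaling and -0.0003 with voom, and 0.16 without Control 3 (limma adjusted p 0.126). ITGB7, a lymphocyte chain, ranged from 0.64 to 2.22 FPKM with the highest value in Control 3 and the lowest in MT 2. The leukocyte chains ITGAL, ITGAM, ITGAE and ITGB2 stayed at or below 1 FPKM in every library, with ITGB2, the partner of ITGAL and ITGAM, at 0 to 10 reads. The 9 members under a mean of 1 FPKM were ITGA7, ITGA11, ITGAL, ITGAM, ITGAE, ITGB2, LAMB4, LAMC3 and NID1, and they were not tested.

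**Figure D3:**
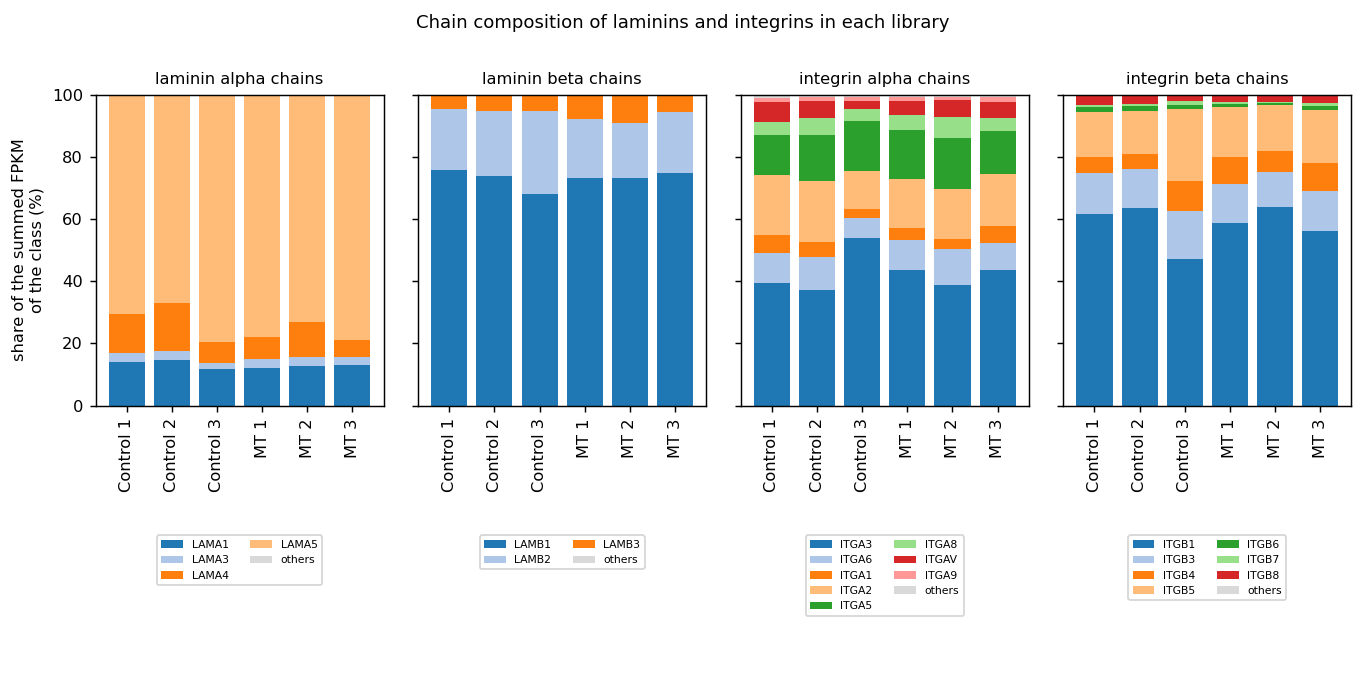
Share in percent of the summed FPKM of each chain class, for each of the 6 libraries; colours are chains. LAMA5 keeps 66.9% to 79.6% of the laminin alpha chains, while in Control 3 ITGA3 is at its highest share of 53.8% and ITGB1 at its lowest of 47.1%.

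Set against each other, receptor and ligand chains were uneven in level. FPKM is scaled by an assigned gene length, which may differ from the length of the transcripts present, so ratios between genes are approximate. The integrin alpha chains that pair with ITGB1 summed to 4.07 to 6.92 times ITGB1 itself, and ITGA3 alone was 1.52 to 3.73 times ITGB1. The highest values of both were in Control 3, and the other 5 libraries reached 5.53 and 2.42. All alpha chains together were 2.60 to 3.27 times all beta chains (up to 3.11 without Control 3). On the ligand side the alpha chains of laminin summed to 2.0 to 3.03 times LAMC1, and the beta chains to 2.01 to 2.75 times (up to 2.48 and 2.34 without Control 3). Taking the lowest chain of each complex, laminin 511 was at 66.1 to 74.0 FPKM with LAMC1 the lowest chain in each library, and the pair of ITGA3 and ITGB1 at 73.4 to 128 with ITGB1 the lower. The pair of ITGA6 and ITGB1 was at 32.5 to 63.2 FPKM with ITGA6 the lower. The pair of ITGA6 and ITGB4, with ITGB4 the lower, was at 9.26 to 15.3. These are levels of mRNA, and the amount of assembled receptor or trimer was not measured.

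The balance between alternative chains was compared within each library as a log2 ratio, for 4 pairs. LAMA5 over LAMA4 was 2.44, 2.06 and 3.47 in Control against 3.33, 2.61 and 3.75 in MT, a mean difference of 0.57. LAMB2 over LAMB1 differed by -0.26, ITGA6 over ITGA3 by 0.21 and ITGA5 over ITGAV by -0.10. The exact permutation test (two-sided, 3 against 3 libraries, smallest possible p 0.1) gave p of 0.3, 0.3, 0.8 and 0.9, and 0.6, 0.6, 0.9 and 0.9 after adjustment over the 4 pairs. In Control 3 the ITGA6 over ITGA3 ratio was the lowest of the 6 at -3.04 and the ITGA5 over ITGAV ratio the highest at 2.51. Without it these 2 differences changed sign, to -0.16 and 0.34, that of LAMA5 over LAMA4 became 0.98 and that of LAMB2 over LAMB1 became -0.10. NID2 over NID1 was not tested because NID1 lay under 1 FPKM.

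**Figure D4:**
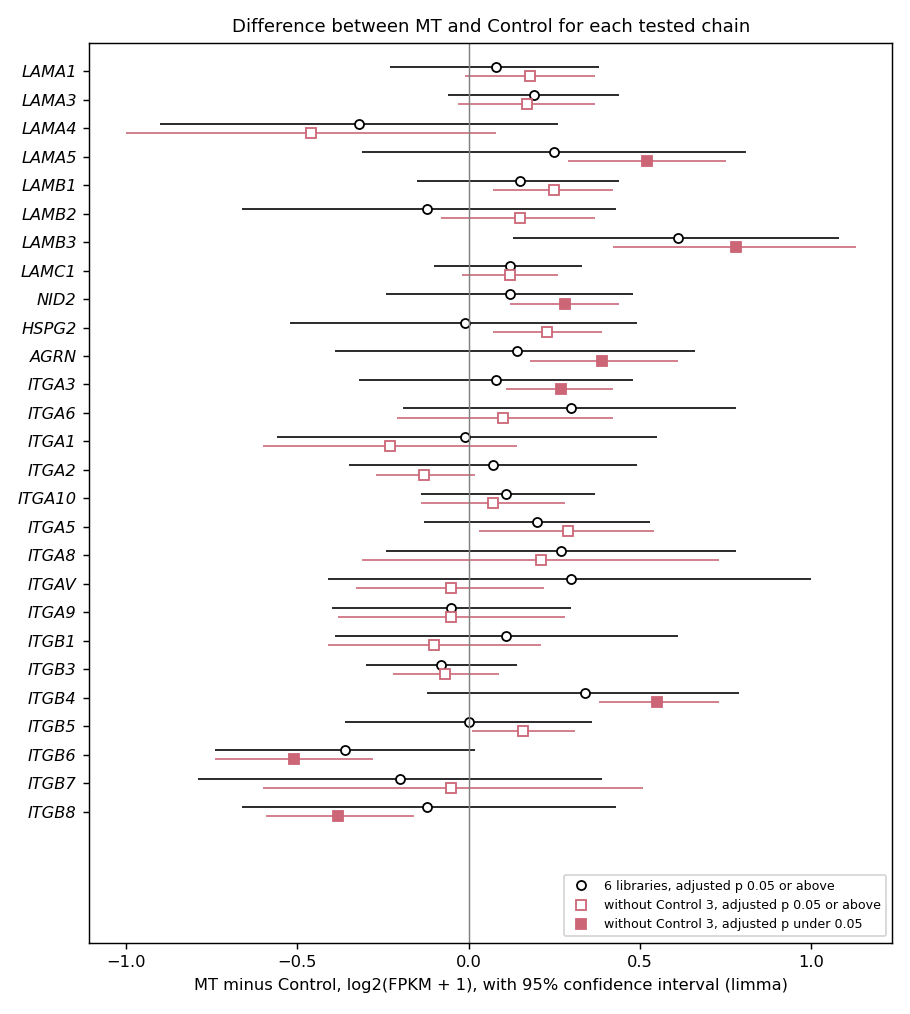
MT minus Control on the log2(FPKM + 1) scale with the 95% confidence interval of limma, for the 27 tested genes, over 6 libraries (black) and without Control 3 (red). No black symbol is filled, and 8 red symbols are, 6 of them to the right of 0 and ITGB6 and ITGB8 to the left.

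Seen without a model, 3 of the 27 genes had groups of 3 that did not overlap: LAMA3 and LAMC1 higher in MT (background 6.24%), and ITGB3 lower (4.99%). Over all tested genes 11.2% did not overlap, so the members' share was near the background. Against Control 1 and Control 2 alone, the MT libraries did not overlap in 17 members (background 56.2%), 13 of them higher (25.9%) and 4 lower (30.3%). Without MT 3 there were 7 members whose groups did not overlap. The share over all tested genes was not worked out for that set, so the 7 cannot be read as a result about the members. Control 3 was the highest library for 11 of the 27 genes (background 32.4%) and the lowest for 8 (41.8%), which makes 19 at an extreme (74.2%). Its highest values were in LAMA1, LAMA5, LAMB2, NID2, HSPG2, AGRN, ITGA3, ITGB3, ITGB4, ITGB5 and ITGB7, and its lowest in LAMA3, ITGA1, ITGA2, ITGA6, ITGA10, ITGAV, ITGB1 and ITGB8. The deviation of Control 3 from the mean of Control 1 and Control 2 had a median of 0.74 on the log2 scale in NID2, HSPG2 and AGRN, 0.30 in laminin chains and -0.15 in integrin chains. Integrin alpha chains were at -0.17 and beta chains at 0.04, and the median over all tested genes was -0.02.

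**Figure D5:**
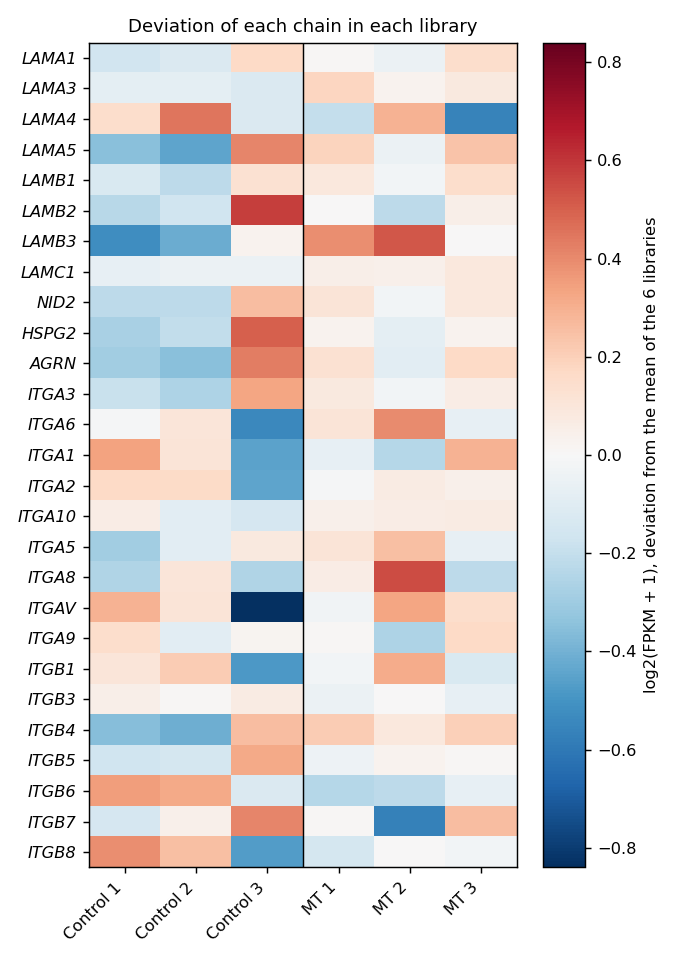
Deviation of log2(FPKM + 1) from the mean of the 6 libraries, one row for each tested gene and one column for each library, red above and blue below the mean. Control 3 is red for LAMB2, HSPG2, AGRN and LAMA5 and blue for ITGAV, ITGA6 and ITGB1, the opposite of Control 1 and Control 2 for LAMB2, HSPG2, AGRN, LAMA5, ITGAV and ITGB1.

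Some chains lie next to each other in the genome (Sscrofa11.1) and still differed in level. LAMB1 and LAMB4 are 30599 bases apart on chromosome 9, LAMB1 at 116 FPKM and LAMB4 at 7 reads over the 6 libraries. ITGA1 and ITGA2, collagen receptor chains 26322 bases apart on chromosome 16, were at 22.3 and 84.9 FPKM. The tested members had a median gene length of 6818 bases as worked out from the FPKM steps, against 4153 for all tested genes. That length is the one FPKM was scaled by and need not be the length of the transcript. The log2 deviation of Control 3 from Control 1 and Control 2 had a Spearman correlation with gene length of -0.20 over all tested genes. In the tested members it was 0.14, and the part of gene length in the results was not tested.

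The wider pathway was read from 3 lists of general knowledge, and 0 of their tested genes passed over 6 libraries with limma or voom. Of 27 tested genes of 29 listed for the adhesion machinery, 0 had an unadjusted p under 0.05 over 6 libraries (limma). The median log2 difference of the 27 was 0.07. Of the same 27, 7 were higher in MT and 0 lower without Control 3, again against backgrounds of 4.28% and 6.62%, with a median of 0.22. The 4 with the smallest p were PXN, the adaptor paxillin, LIMS2, which binds the integrin-linked kinase, SRC, a tyrosine kinase of adhesion sites, and TGFB1I1, a paxillin relative. PXN stood at 10.3, 9.95 and 13.1 FPKM in Control against 13.7, 13.1 and 14.3 in MT (0.29 over 6 libraries, 0.40 without Control 3, limma adjusted p 0.0316). LIMS2 was at 4.87, 5.66 and 7.44 in Control against 7.19, 8.18 and 8.05 in MT (0.35 and 0.49), and SRC at 18.2, 16.9 and 26.2 and at 22.5, 22.5 and 24.0 (0.19 and 0.37). TGFB1I1, at 13.6, 13.7 and 15.6 in Control against 17.4, 16.8 and 16.9 in MT (0.24 and 0.30), was the only 1 of these 4 whose groups of 3 did not overlap.

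Of 12 tested laminin receptors outside the integrin family and their modifying enzymes (18 listed, median log2 difference 0.15 over 6 libraries and 0.05 without Control 3), 1 had an unadjusted p under 0.05 over 6 libraries (background 4.72%), and GPC1 alone passed without Control 3 (limma, background 4.28% higher). GPC1, a glypican, stood at 12.9, 12.4 and 17.3 FPKM in Control against 19.8, 18.9 and 18.2 in MT, with no overlap of the groups. Its log2 difference was 0.41 over 6 libraries and 0.55 without Control 3 (limma adjusted p 0.0196). Of 18 tested other ligands of integrins (25 listed, medians 0.16 and 0.24), 5 had an unadjusted p under 0.05 over 6 libraries (limma, background 4.72%), and 4 were higher (4.28%) and 1 lower (6.62%) without Control 3. COL18A1, a collagen of basement membranes, was at 70.0, 74.7 and 87.6 FPKM in Control against 94.5, 95.6 and 95.8 in MT (0.30 over 6 libraries and 0.39 without Control 3). The collagen IV chains COL4A1 and COL4A2 differed by 0.30 and 0.32 over 6 libraries and by 0.34 and 0.35 without Control 3, and like COL18A1 their groups of 3 did not overlap. THBS1, thrombospondin, was at 1088, 1105 and 1415 FPKM in Control against 1369, 1457 and 1268 in MT (0.19 and 0.31). VCAM1, a ligand of integrins on leukocytes, was the lower gene at 2.44, 3.35 and 1.42 in Control against 1.33, 1.70 and 1.32 in MT (-0.44 over 6 libraries, -0.66 without Control 3, limma adjusted p 0.0364).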

How the data were processed

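Per the submitters' processing notes, bcl2fastq, HISAT2, featureCounts and Subread were used with the build Sscrofa11.1, and the authors deposited 1 table of FPKM with a column for each library. No tool version, annotation release or strand setting is named in the sources used here. Symbols were matched by Ensembl identifier for 13173 of 20731 genes, and coordinates by symbol to the RefSeq annotation of Sscrofa11.1. Library totals and gene lengths were worked out from the steps of low FPKM values. All 10950 tested genes (100.0%) gave read numbers within 0.01 of whole, each possibly a whole fraction of the true one. The same limit holds for the reads given for genes that were not tested. It is greatest where few libraries have reads, as in ITGA7. Chi-square per degree of freedom between libraries of 1 group lay from 6.34 to 149, and each was counted as a library of its own.

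Genes whose mean reached 1 FPKM were tested with limma 3.58.1 (R 4.3.3) on log2(FPKM + 1) (two-sided, with a variance trend and no term but the group) and Benjamini-Hochberg adjustment over 10950 genes at 0.05. The added 1 shrinks the log2 difference of genes of low FPKM. Ratios used scipy 1.17.1. The fit was tested on simulated data. The members, the lists and the concern about Control 3 were chosen with earlier results of these data known. 1 gene that the rule finds is not reported here and enters no count of members. Values in all libraries are given for members that passed without Control 3, had an unadjusted p under 0.05 or groups that did not overlap, for the 2 highest members of each role, and for main laminin receptor and network chains. Others were added where a complex needed them. Of each pathway list, up to 4 genes per direction are named, by smallest p. Alternatives were other pseudocounts, filters, scalings, variance models, voom, a replicate block and leaving out each library. Voom without Control 3 was added after seeing the data.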

Additional observations from a re-analysis of the deposited data

How the results depend on the processing

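Over 6 libraries, 0 members and 0 genes passed under each alternative run, with limma or with voom on recovered reads (495 genes at an unadjusted p under 0.05, and 517 in limma). Deviations from the group mean correlated at -0.44, 0.63 and 0.34 between same-numbered libraries. These values cannot decide whether replicate numbers pair the libraries, because Control 3 weighs heavily on the Control deviations. Its deviations correlated at -0.91 with those of Control 1 and at -0.9 with those of Control 2. The 3 deviations of a group sum to 0 in each gene, so negative values within a group are partly forced. Within MT the correlations were -0.59, -0.16 and -0.7. With the replicate number as a block 0 genes passed. Leaving out 1 library passed 0 to 1194 genes, 0 to 8 members and 0 to 13 pathway genes, the highest each time without Control 3. Without Control 3, quantile normalisation passed 1333 genes (663 higher and 670 lower, against 469 and 725), 8 members and 12 pathway genes. Median ratio scaling passed 1266, 8 and 12, and voom 2367, 10 and 26. Members whose groups did not overlap numbered 3 to 17 with a library left out. There were 17 without Control 3 (background 56.2%) and 7 without MT 3, for which no background was worked out. The pseudocount, the variance model, voom and the block give no count of their own for it. With 2 Control libraries, counts rest on fewer samples.

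Some directions changed. LAMB2 was at 0.15 without Control 3, and at 0.13, 0.15 and 0.15 with quantile normalisation, median ratio scaling and voom added. In the same order HSPG2 gave 0.23, 0.19, 0.24 and 0.24, ITGA2 -0.13, -0.18, -0.12 and -0.13, ITGAV -0.05, -0.06, -0.05 and -0.06, and ITGB1 -0.10, -0.16, -0.09 and -0.10. Over 6 libraries HSPG2 was at 0.0034 with quantile normalisation, and ITGB5 at -0.02 with median ratio scaling and -0.0003 with voom. With each library left out in turn, the ranges were -0.26 to 0.15 for LAMB2, -0.15 to 0.23 for HSPG2, -0.0015 to 0.39 for AGRN, -0.03 to 0.27 for ITGA3, -0.23 to 0.16 for ITGA1, -0.13 to 0.17 for ITGA2, -0.05 to 0.51 for ITGAV, -0.15 to 0.07 for ITGA9, -0.10 to 0.25 for ITGB1, -0.09 to 0.16 for ITGB5, -0.38 to 0.03 for ITGB7 and -0.38 to 0.05 for ITGB8. The log2 ratio of ITGA6 to ITGA3 ranged from -0.16 to 0.45 and that of ITGA5 to ITGAV from -0.41 to 0.34. The cause was not tested. Chains under 1 FPKM were not tested, and most had few reads (ITGAL, at 89 to 133 in a library, had the most).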
